A study of Mus musculus with 6 samples.

Results

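The core clock genes were 10 genes chosen by name, Arntl, Npas2, Clock, Cry1, Cry2, Per1, Per2, Per3, Nr1d1 and Dbp, out of 47232 gene names with usable values in mouse liver. Of the 10 genes, 9 were listed once for every mouse, and all 9 passed the filter on low values together with 18619 genes in all. Per3 was listed at 2 places and is described apart. The livers came from 3 laboratory mice of the inbred strain C57BL/6, bought from a breeder as adults of nearly the same age and killed on arrival, and from 3 wild mice trapped as adults and then kept for some months under natural light at ambient temperature. The only females were wild mice 2 and 3, the other 4 mice being male, so the effects of sex and origin cannot be told apart fully. In any fit with sex as a covariate, the difference between the groups therefore rests on wild mouse 1 alone against the laboratory mice. Wild mice 1 and 2 came from 1 trapping site and wild mouse 3 from the other. No genotype, allele or treatment is given for any mouse, the exact ages of the wild mice are not given, and the hour at which each liver was taken is not given in the sources used here. Each mouse was sequenced once, and the question was how the transcripts of the liver clock differed between the laboratory and the wild livers and among the mice of each group.

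The clock is a loop of transcription factors that runs in nearly every cell with a daily period. BMAL1, the protein of Arntl, pairs with CLOCK or its relative NPAS2 and switches on genes that carry an E-box, among them the Per and Cry genes, whose proteins return to the nucleus and block the pair. The same pair drives Nr1d1, which encodes REV-ERB alpha, a repressor of Arntl, and Dbp, a transcription factor that carries the rhythm to liver output genes through D-boxes. In liver, transcripts of Arntl, Npas2 and Clock peak at another time of day than those of Dbp, Nr1d1 and the Per genes, and many transcripts of bile acid, haem and drug metabolism follow the loop.

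The DNA letters that these proteins read were searched for on both strands in the RefSeq promoter windows of GRCm38.p6, the build of the deposited files, from 250 bases before to 50 bases after each transcript start. Windows were found for 9 of the 10 genes, and Per2 was not among them. The 5 windows below are shown because they hold 3 kinds of element of the loop. In Arntl (plus strand, chr7:113207261-113207560) the capitals mark a ROR/REV-ERB response element that begins 26 bases after the start. In Per1 (plus strand, chr11:69098699-69098998) they mark the E-box CACGTG 166 bases before the start. In Cry1 (minus strand, chr10:85185005-85185304) they mark first the variant E-box CACGTT, read from either strand, 79 bases before the start and then CACGTG 60 bases before it. In Nr1d1 (minus strand, chr11:98775328-98775627) they mark the variant 28 bases before the start. In Per3 (minus strand, chr4:151044616-151044915) they mark the D-box TTATGTAA, read from either strand, at 205 and 158 bases before the start.
Arntl: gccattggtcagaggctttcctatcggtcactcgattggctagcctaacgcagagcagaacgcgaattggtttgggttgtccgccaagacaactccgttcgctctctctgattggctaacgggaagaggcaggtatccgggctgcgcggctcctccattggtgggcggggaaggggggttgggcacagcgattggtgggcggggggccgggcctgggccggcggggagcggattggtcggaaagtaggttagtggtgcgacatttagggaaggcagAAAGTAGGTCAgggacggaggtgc
Per1: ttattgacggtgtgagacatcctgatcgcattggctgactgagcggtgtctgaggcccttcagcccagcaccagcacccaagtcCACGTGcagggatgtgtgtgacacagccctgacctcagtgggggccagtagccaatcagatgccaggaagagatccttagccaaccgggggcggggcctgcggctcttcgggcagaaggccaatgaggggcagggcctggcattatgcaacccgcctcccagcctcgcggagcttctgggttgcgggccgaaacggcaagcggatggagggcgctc
Cry1: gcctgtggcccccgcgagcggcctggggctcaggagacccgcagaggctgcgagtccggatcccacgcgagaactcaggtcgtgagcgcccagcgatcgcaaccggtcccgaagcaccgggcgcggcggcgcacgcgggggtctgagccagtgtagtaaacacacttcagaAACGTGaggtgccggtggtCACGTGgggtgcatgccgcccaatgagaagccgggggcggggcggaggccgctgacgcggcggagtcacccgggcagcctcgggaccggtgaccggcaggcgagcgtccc
Nr1d1: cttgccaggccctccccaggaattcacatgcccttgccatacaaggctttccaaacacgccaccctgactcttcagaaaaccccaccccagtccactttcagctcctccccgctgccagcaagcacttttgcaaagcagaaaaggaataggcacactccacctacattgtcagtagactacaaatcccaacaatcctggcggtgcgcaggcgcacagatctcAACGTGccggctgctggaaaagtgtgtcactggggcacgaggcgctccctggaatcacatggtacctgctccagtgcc
Per3: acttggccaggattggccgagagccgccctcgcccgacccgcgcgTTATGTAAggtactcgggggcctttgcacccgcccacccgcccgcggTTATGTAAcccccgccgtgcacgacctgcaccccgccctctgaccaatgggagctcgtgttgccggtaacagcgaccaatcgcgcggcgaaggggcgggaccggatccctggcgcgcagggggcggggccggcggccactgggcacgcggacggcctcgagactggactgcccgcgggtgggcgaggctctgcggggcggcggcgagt
Cry2 also held the variant E-box, 166 bases before its start. The windows of Clock, Npas2 and Dbp, and a further window each of Arntl and Per1, held none of these letters. No matches overlapped each other. Over 32544 distinct promoter windows of the mouse genome, 7.17% held CACGTG, 4.71% the variant, 0.931% the D-box and 0.384% the ROR/REV-ERB element, and the cAMP response element TGACGTCA, in 1.80% of windows, was in no member's window. A match describes the letters of the window and shows no binding.

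Levels are given as FPKM, which counts fragments of a gene per length of transcript and size of library, and as zFPKM, the authors' score, in which log2 FPKM is centred and scaled by a curve fitted to each mouse. FPKM ran higher in the wild livers for most genes, and the median of log2(FPKM + 0.1) over the tested genes was 0.74 higher in wild than in laboratory mice, so that differences are also given on log2(FPKM + 0.1) with this median set to 0 in each mouse, called centred log2 here. The median of the genes' own differences before centring was smaller, 0.47, and on centred log2 11034 of 18619 tested genes lay lower in wild mice. The zFPKM scale had an offset of its own, with a median over the tested genes of -0.747 in laboratory mouse 3 and -0.697 in wild mouse 1 against -0.280 to -0.168 in the other 4 mice. Absolute depth is unknown. Relative depth was 0.922 to 1.36, with laboratory mouse 2 as 1, and the bounds that the files give on FPKM in 5 mice reached from 5.11% of the value in Nr1d1 to 55.1% in Npas2. Hepatocyte markers were abundant in every mouse, with a lowest zFPKM of 1.55 over 10 markers. In whole liver, fewer cells of a type and less of a transcript per cell cannot be told apart.

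Among the 9 clock genes listed once, Nr1d1 was the most abundant in both groups and Npas2 the least abundant by mean FPKM. In laboratory mice Nr1d1 had 32.6 ± 3.81 FPKM (SD, n = 3), followed by Dbp with 10.4 ± 1.49 FPKM. Npas2 had 0.173 ± 0.0658 FPKM, and the other 6 genes lay between 1.39 and 2.71 FPKM on average, where each overlapped its neighbour in the order. In wild mice Nr1d1 had 43.4 ± 24.2 FPKM and Arntl came next with 9.62 ± 2.43 FPKM. Below Nr1d1, every wild gene overlapped its neighbour in the order, down to Npas2 with 1.42 ± 0.624 FPKM. The means spanned 188-fold in laboratory mice and 30.5-fold in wild mice.

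**Figure D1:**
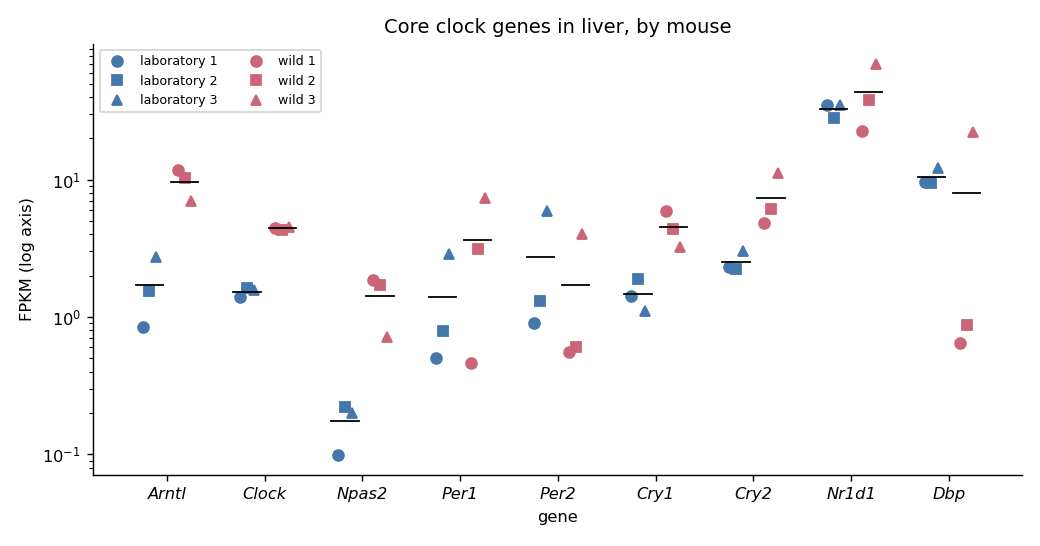
FPKM (log axis) of the 9 core clock genes listed once, in each of the 3 laboratory mice (blue) and 3 wild mice (red), with black lines at the group means. Arntl, Clock and Npas2 lay higher in all wild mice, whereas Dbp was 0.644 and 0.867 FPKM in wild mice 1 and 2 and 22.3 FPKM in wild mouse 3.

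The activators of the loop, Arntl, Clock and Npas2, were more abundant in all 3 wild livers. Arntl (chr7:113178471-113314126), which encodes the obligate partner of both other activators, was at 0.841, 1.54 and 2.73 FPKM in laboratory mice 1, 2 and 3 and at 11.7, 10.2 and 6.93 FPKM in wild mice 1, 2 and 3. The groups did not overlap, and the lowest wild mouse, wild mouse 3, stood above the highest laboratory mouse, laboratory mouse 3. Relative to the median of each mouse, Arntl rose 3.48-fold in wild mice (centred log2 difference 1.80, SE 0.36, limma adjusted p = 0.00565), and on zFPKM its difference was 0.652 (SE 0.231, adjusted p = 0.0367). Over all alternatives its adjusted p ran from 0.00198 to 0.325, and it kept an adjusted p under 0.05 on centred log2 whichever mouse was left out. On zFPKM the call was lost without laboratory mouse 1 (0.138), laboratory mouse 2 (0.0885), wild mouse 2 (0.259) or wild mouse 3 (0.146), with sex as a covariate (0.191), with no trend (0.110) and with no filter (0.325).

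Npas2 (chr1:39193702-39363240), the relative of Clock that can take its place beside BMAL1, was at 0.0984, 0.222 and 0.200 FPKM in the laboratory mice and at 1.87, 1.70 and 0.711 FPKM in the wild mice. All wild values were above all laboratory values, and wild mouse 3 was again the lowest of its group. Npas2 rose 3.18-fold on centred log2 (difference 1.67, SE 0.44, limma adjusted p = 0.0161). Its zFPKM difference of 0.806 (SE 0.395) did not pass (adjusted p = 0.172), and over all alternatives the adjusted p ran from 0.00330 to 0.511. Without laboratory mouse 1 the centred log2 call was lost (adjusted p = 0.0559).

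Clock (chr5:76209868-76305603), which encodes the histone acetyltransferase partner of BMAL1, varied little in FPKM within each group. Its FPKM was 1.39, 1.63 and 1.57 in the laboratory mice against 4.44, 4.33 and 4.54 in the wild mice. The wild mice lay within 1.05-fold of each other and the laboratory mice within 1.18-fold, with no overlap in FPKM. On centred log2 the difference was 0.74 (SE 0.21, limma adjusted p = 0.0236), a 1.67-fold rise. On zFPKM it was 0.296 (SE 0.257, adjusted p = 0.519), where the values of the groups overlapped. Over the alternatives the adjusted p ran from 8.36e-04 to 0.911, and on centred log2 the call was lost without laboratory mouse 2 (0.0586), wild mouse 1 (0.0552) or wild mouse 2 (0.0670) and with sex as a covariate (0.0594).

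Among the repressors, the 2 Cry genes were higher in wild livers by FPKM, whereas the Per genes differed mainly between mice of the same group. Cry1 (chr10:85131700-85185054), the stronger of the cryptochrome repressors of CLOCK and BMAL1, was at 1.42, 1.90 and 1.10 FPKM in laboratory mice and at 5.93, 4.39 and 3.22 FPKM in wild mice. The groups did not overlap in FPKM, but wild mouse 3 fell within the laboratory range on centred log2. There the difference was 0.80 (SE 0.37, limma adjusted p = 0.107), and on zFPKM it was 0.332 (SE 0.260, adjusted p = 0.460), so neither passed. Over the alternatives its adjusted p ran from 0.00527 to 0.865.

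Cry2 (chr2:92403646-92434085), the second cryptochrome, was at 2.33, 2.24 and 3.03 FPKM in laboratory mice and at 4.83, 6.15 and 11.2 FPKM in wild mice. In FPKM and on centred log2 every wild mouse was above every laboratory mouse. On zFPKM the groups overlapped, with wild mouse 1 (-0.0893) below laboratory mice 1 (0.234) and 2 (0.121). Wild mouse 3, the lowest of the wild mice in Cry1, was the highest in Cry2. The centred log2 difference was 0.69 (SE 0.27, limma adjusted p = 0.0650) and the zFPKM difference 0.259 (SE 0.227, adjusted p = 0.525), with a range of adjusted p over the alternatives of 0.00897 to 0.907. The ratio of Cry1 to Cry2 FPKM, which no scaling between mice can alter, was 0.609, 0.851 and 0.363 in laboratory mice against 1.23, 0.714 and 0.288 in wild mice, so it overlapped between the groups.

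Per1 (chr11:69095108-69109965), a period gene that also responds quickly to glucocorticoids and cAMP, was at 0.506, 0.790 and 2.88 FPKM in laboratory mice and at 0.462, 3.11 and 7.37 FPKM in wild mice. The groups overlapped across most of their range, with wild mouse 1 below all others and wild mouse 3 above all others. The zFPKM difference was 0.0744 (SE 0.296, limma adjusted p = 0.913) and the centred log2 difference 0.28 (SE 0.85, adjusted p = 0.800), and its sign turned under 6 alternatives. Over all of them the adjusted p ran from 0.0666 to 0.989.

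Per2 (chr1:91415977-91459351), whose protein carries the cryptochromes to the activators, was at 0.906, 1.31 and 5.92 FPKM in laboratory mice and at 0.555, 0.605 and 4.01 FPKM in wild mice. Laboratory mouse 3 and wild mouse 3 each stood 3 or more times above the other mice of its group, and the groups overlapped. The centred log2 difference was -1.47 (SE 0.76, limma adjusted p = 0.143) and the zFPKM difference -0.555 (SE 0.297, adjusted p = 0.224). Without wild mouse 3 the centred log2 difference was -2.26 (SE 0.61) and passed (adjusted p = 0.0237), and over all alternatives the adjusted p ran from 0.0237 to 0.622.

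Per3, the third period gene, was listed both on chromosome 4 (chr4:150997018-151044707) and on an alternate sequence of the same assembly, and reads may have been divided between the copies, so its level is uncertain. The alternate copy, given for all mice, was at 0.271, 0.380 and 1.01 FPKM in laboratory mice and at 0.121, 0.142 and 1.22 FPKM in wild mice. The chromosome 4 copy, not listed for laboratory mouse 1, was at 0.453 and 1.15 FPKM in laboratory mice 2 and 3 and at 0.106, 0.183 and 1.14 FPKM in the wild mice. In FPKM both copies were high in laboratory mouse 3 and wild mouse 3 and low in wild mice 1 and 2, as Per2 was. On zFPKM laboratory mouse 3 was the lowest laboratory mouse listed for the alternate copy (-0.840) and for the chromosome 4 copy (-0.765). For Per2 it was the highest (0.179). In a fit that matched entries by name and position, the zFPKM difference of the alternate copy was -0.527 (SE 0.413, limma adjusted p = 0.463), and its adjusted p over the alternatives ran from 0.00967 to 0.826.

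Nr1d1 (chr11:98767932-98775377), the repressor that binds the ROR/REV-ERB element, was at 34.9, 28.2 and 34.7 FPKM in laboratory mice and at 22.6, 37.7 and 70.0 FPKM in wild mice. In FPKM the laboratory mice lay close together, whereas wild mouse 1 was below and wild mice 2 and 3 were above all of them. On centred log2 the laboratory mice were at 5.24, 4.67 and 4.76 and the wild mice at 3.78, 4.37 and 5.10. There wild mice 1 and 2 were below all laboratory mice and wild mouse 3 was inside their range. On zFPKM wild mouse 2 (1.26) was inside the laboratory range of 1.20 to 1.49. The zFPKM difference was -0.166 (SE 0.144, limma adjusted p = 0.518) and the centred log2 difference -0.48 (SE 0.33, adjusted p = 0.266), and the sign turned on log2 FPKM without centring. Over the alternatives the adjusted p of Nr1d1 ran from 0.0523 to 0.859. Its 3′ end shares 1075 bases with Thra on the other strand, which was at 2.89 to 4.15 FPKM in laboratory mice and 5.48 to 6.80 FPKM in wild mice. Whether counting used strand is not given in the sources used here.

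Dbp (chr7:45705100-45710203), an output factor with a large daily swing in liver, separated wild mice 1 and 2 from every other mouse. Its FPKM was 9.62, 9.42 and 12.1 in laboratory mice against 0.644, 0.867 and 22.3 in wild mice. In FPKM wild mice 1 and 2 were more than 10 times below the lowest laboratory mouse, while wild mouse 3 was above the highest. On the other scales wild mouse 3 was only just above the highest laboratory mouse (3.46 against 3.39 on centred log2 and 0.940 against 0.892 on zFPKM). The groups therefore overlapped. On zFPKM the difference was -0.999 (SE 0.218, limma adjusted p = 1.18e-04), but this fit gave each gene the spread shared by genes of like level and no weight to its own. With the trend removed the SE was 0.484 and the adjusted p 0.286, and on centred log2 the difference was -2.78 (SE 1.07, adjusted p = 0.0619). Over all alternatives the adjusted p ran from 6.20e-06 to 0.450. Without wild mouse 1 the zFPKM difference was -0.534 (adjusted p = 0.273) and without laboratory mouse 3 it was -1.09 (adjusted p = 0.112). With sex as a covariate, which sets wild mouse 1 alone against the laboratory mice, it was -1.93 on zFPKM and -4.40 on centred log2. Without wild mouse 3 it was -1.59 on zFPKM and -4.28 (SE 0.24, adjusted p = 1.94e-04) on centred log2. Dbp shares 741 bases of its 3′ end with Sphk2 on the other strand, which was at 14.2 to 18.6 FPKM in laboratory mice and 24.3 to 33.1 FPKM in wild mice, including 24.5 and 24.3 FPKM in wild mice 1 and 2, where Dbp was lowest.

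Ratios of clock genes within a mouse do not depend on how mice are scaled to each other. The ratio of Arntl to Dbp FPKM was 0.0874, 0.163 and 0.226 in laboratory mice against 18.1, 11.8 and 0.310 in wild mice. Wild mice 1 and 2 thus had more Arntl than Dbp, whereas wild mouse 3 and all laboratory mice had more Dbp than Arntl. The ratio of Arntl to Per2 was 0.929, 1.17 and 0.460 in laboratory mice against 21.0, 16.9 and 1.73 in wild mice, and that of Npas2 to Dbp was 0.0102, 0.0235 and 0.0166 against 2.90, 1.96 and 0.0319. In these ratios, as in that of Arntl to Dbp, the groups did not overlap, and wild mouse 3 lay nearest to the laboratory mice. Of the ratios given, only that of Arntl to Dbp was planned. Ratios with Arntl or Npas2 on top use members already seen to be higher in wild mice, so they restate those levels. How often other pairs of genes did not overlap was not counted, and the ratios are a description.

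**Figure D2:**
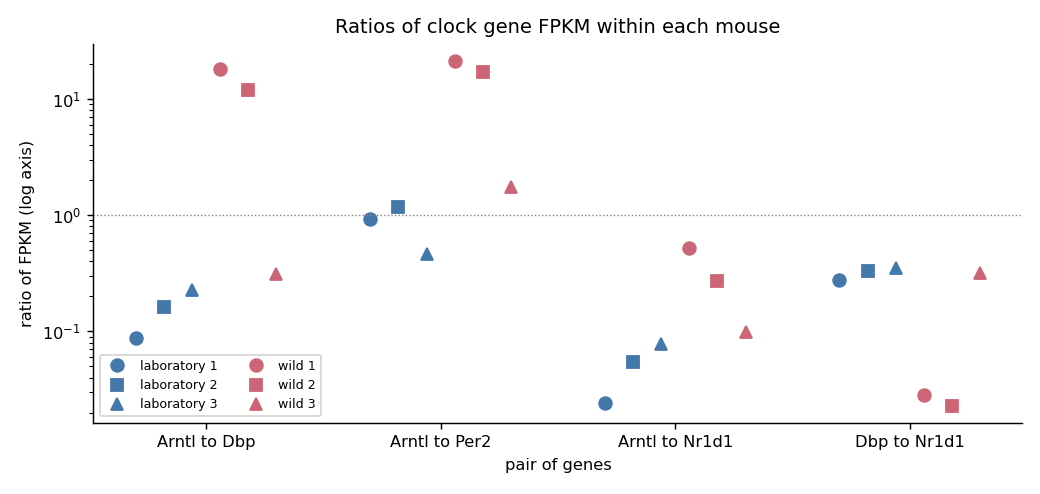
Ratio of FPKM (log axis) of 4 pairs of clock genes within each laboratory mouse (blue) and wild mouse (red), with a dotted line at 1. The ratio of Arntl to Dbp was 18.1 and 11.8 in wild mice 1 and 2 and 0.0874 to 0.310 in the other 4 mice.

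The ratio of Dbp to Nr1d1, which are both driven by CLOCK and BMAL1, was 0.275, 0.333 and 0.348 in laboratory mice against 0.0285, 0.0230 and 0.319 in wild mice. Wild mouse 3 fell inside the laboratory range here, and wild mice 1 and 2 were both far below it. The ratio of Arntl to Nr1d1 was 0.0241, 0.0545 and 0.0784 in laboratory mice against 0.516, 0.272 and 0.0990 in wild mice, with all wild mice above. The ratio of Npas2 to Clock was 0.0710, 0.136 and 0.128 against 0.420, 0.392 and 0.157, so every wild mouse had more Npas2 per Clock, wild mouse 3 by the narrowest margin.

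Counted over the 9 tested members, 2 passed the test on zFPKM, Arntl higher and Dbp lower, against 14.4% of all tested genes. The values of the groups did not overlap on zFPKM for 2 members, Arntl and Npas2, against 28.3% of all tested genes. On centred log2, 3 of 9 members passed, against 47.4% of all tested genes in either direction. All 3 were activators and were higher in wild mice, against 18.6% of all tested genes called in that direction. The groups did not overlap on this scale for 4 members, Arntl, Clock, Npas2 and Cry2, against 58.3% of all tested genes. Without wild mouse 3, 6 members passed on centred log2, against 39.6% of all tested genes, namely Arntl, Clock, Npas2 and Cry1 higher and Dbp and Per2 lower in wild mice 1 and 2. This fit was added after the values were seen. With all mice, the members called in either direction were not far from the share among all genes, those called higher on centred log2 were above it, and nothing particular to the members is read from 9 genes. The median centred log2 difference of the 9 members was 0.69 against -0.27 over all tested genes. On zFPKM the medians were 0.259 and -0.00500. Of the genes called, 1355 of 2690 were higher in wild mice on zFPKM, 3465 of 8817 on centred log2 and 7065 of 8589 on log2 FPKM without centring.

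**Figure D3:**
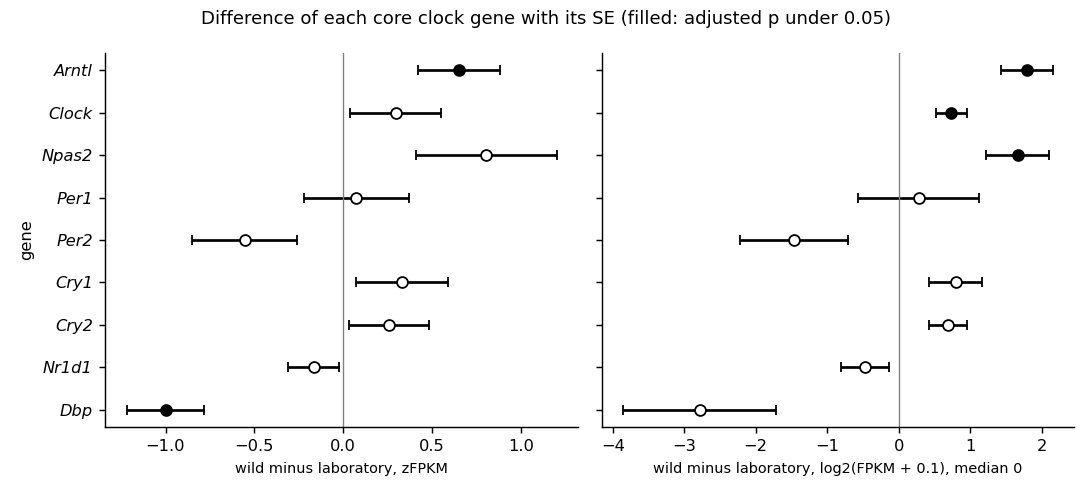
Difference of each tested core clock gene, wild minus laboratory, on zFPKM (left) and on log2(FPKM + 0.1) with the median of each mouse at 0 (right), with bars of 1 SE from limma and filled points for an adjusted p under 0.05. Arntl passed on both scales, Dbp only on zFPKM, and Clock and Npas2 only on centred log2.

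On centred log2 the spread between mice of a group was wide for most members in the wild livers. The wild group held both sexes and both trapping sites, and their part in its spread was not tested. The SD of centred log2 in wild mice exceeded the median SD of all tested genes (0.29) in 8 of 9 members, with a median of 0.66. It was 2.60 for Dbp, above that of 99.7% of tested genes, 1.76 for Per1 (98.9%) and 1.37 for Per2 (97.3%). Clock, with an SD of 0.14, was the 1 member below the median. On zFPKM 6 of 9 members exceeded the median of tested genes (0.269) in wild mice, and Arntl (0.166), Clock (0.202) and Cry1 (0.156) lay below it.

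In laboratory mice the SD of centred log2 exceeded the median of tested genes (0.30) in 5 of 9 members. Per2 with 1.16 (above 98.6% of tested genes) and Per1 with 0.98 (97.4%) varied most, whereas Dbp with 0.15 had the lowest SD of the members. On zFPKM the order in laboratory mice was another, with Per1 (0.119) and Per2 (0.203) below the median of tested genes (0.296) and Cry1 (0.469), Npas2 (0.405) and Clock (0.328) above it. In wild mice Dbp was the most variable member on both scales. With 3 mice a group each SD is itself imprecise, and the difference of spread was not tested.

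**Figure D4:**
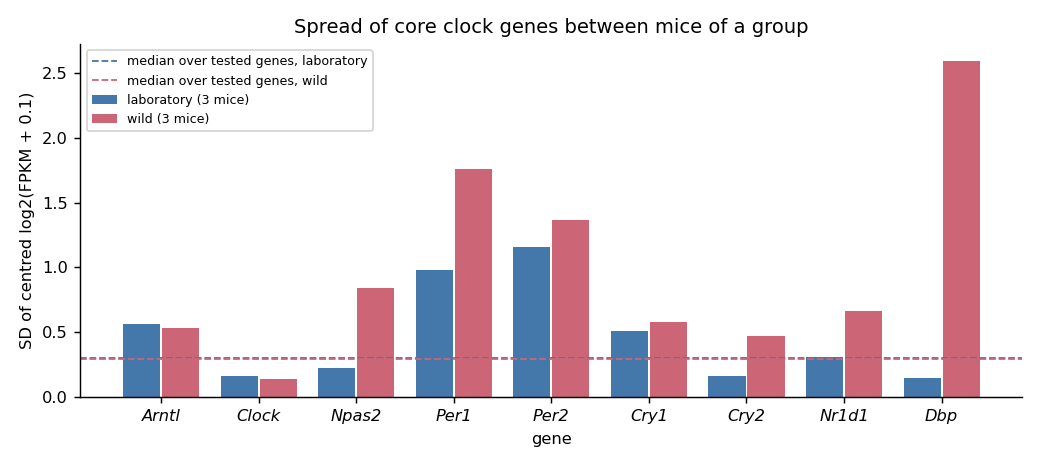
SD between the 3 laboratory mice (blue bars) and between the 3 wild mice (red bars) of log2(FPKM + 0.1), with the median of each mouse at 0, for each core clock gene. Dashed lines mark the median SD over all tested genes (0.30 and 0.29), and Dbp in wild mice reached 2.60.

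Other genes of the loop were taken from a list of 18 regulators, of which 16 were tested. On zFPKM, 1 of them passed, Bhlhe40, against 14.4% of all tested genes. On centred log2 5 passed, against 47.4% of all tested genes in either direction, and all 5 were higher in wild mice, against 18.6% called in that direction, with a median difference of 0.18 against -0.27 over all tested genes. Bhlhe40, which encodes the E-box repressor DEC1 and was the most abundant gene of the list, was at 5.00, 3.83 and 6.95 FPKM in laboratory mice and at 9.74, 39.8 and 32.8 FPKM in wild mice. The wild mice were all above the laboratory mice in FPKM, with the female wild mice highest. Its difference was 0.489 on zFPKM (SE 0.181, limma adjusted p = 0.0487) and 1.43 on centred log2 (SE 0.45, adjusted p = 0.0326). The adjusted p over the alternatives ran from 0.00161 to 0.763. With sex as a covariate (wild mouse 1 alone), the difference was -0.125 on zFPKM and 0.32 on centred log2. On both scales the call was lost when any mouse other than wild mouse 1 was left out. The zFPKM difference was 0.796 without wild mouse 1 and 0.298 without wild mouse 2.

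Rora, Csnk1d and Fbxw11, which were among the regulators that passed on centred log2, were picked out after their values were seen. Rora, whose protein activates Arntl through the same element that REV-ERB alpha represses, was at 1.37, 1.31 and 1.53 FPKM in laboratory mice and at 4.97, 6.27 and 6.43 FPKM in wild mice, with no overlap (centred log2 difference 1.25, limma adjusted p = 0.00271). Csnk1d, the casein kinase that marks PER proteins for decay, differed by 0.85 (adjusted p = 0.00760), and Fbxw11, of a ubiquitin ligase that degrades them, by 0.95 (adjusted p = 0.00635). None of these 3 passed on zFPKM, where the adjusted p was 0.217 for Rora, 0.288 for Csnk1d and 0.322 for Fbxw11. Rorb, the least abundant gene of the list, was listed at 0 in every mouse.

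The 3 D-box factors Tef, Hlf and Nfil3 did not pass on either scale (limma adjusted p of 0.432 to 0.902 on zFPKM and of 0.167 to 0.747 on centred log2). Tef, a relative of Dbp, was at 9.33, 9.37 and 20.2 FPKM in laboratory mice and at 8.25, 8.81 and 28.9 FPKM in wild mice. In FPKM it was high in laboratory mouse 3 and wild mouse 3 like Per2, whereas its zFPKM in laboratory mice was 0.878, 0.798 and 0.883. Nfil3, the repressor that competes for D-boxes, was at 5.35, 8.61 and 8.89 FPKM in laboratory mice and at 18.7, 30.6 and 12.5 FPKM in wild mice, where both mice low in Dbp had the most Nfil3. Ciart, an E-box repressor, was at 0.395, 0.277 and 0.954 FPKM in laboratory mice and at 0.139, 0.408 and 4.55 FPKM in wild mice. Arntl2, the relative of Arntl, was listed at 2 places and not tested, and its chromosome 6 copy was at 0.170 and 0.294 FPKM in laboratory mice 2 and 3 and listed at 0 in all wild mice.

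**Figure D5:**
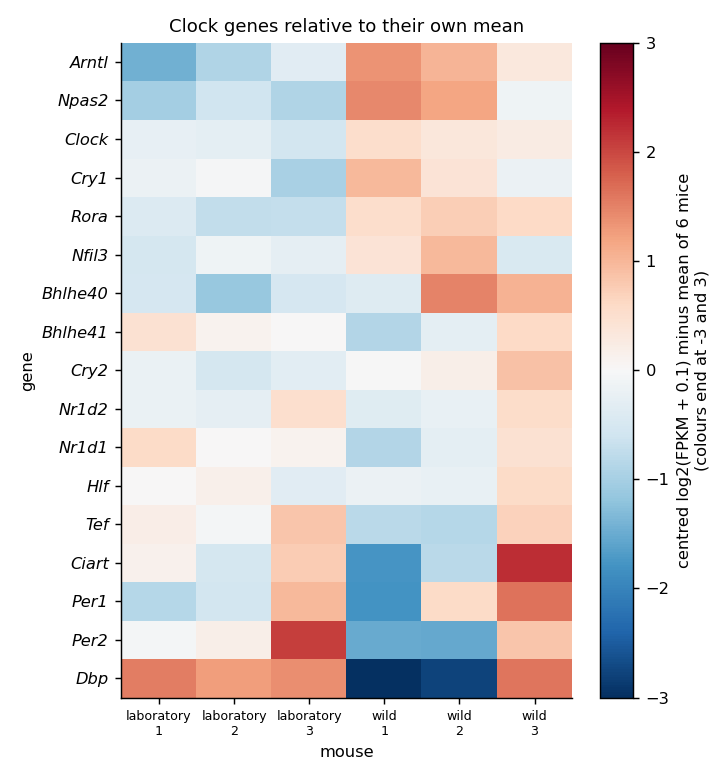
Centred log2 expression of the core clock genes and of 8 other regulators (rows) in each mouse (columns), less the mean of the 6 mice for each gene, with colours ending at -3 and 3. Arntl, Npas2 and Clock were low in laboratory mice and high in wild mice 1 and 2, and Dbp was low only in wild mice 1 and 2.

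Of 15 liver output genes of the clock, 14 were tested, of which 4 passed on zFPKM, against 14.4% of all tested genes, and 6 on centred log2, against 47.4%. Their median centred log2 difference was 0.72 against -0.27 over all tested genes. Cyp7a1, the rate-limiting enzyme of bile acid synthesis, was at 2.74, 6.22 and 5.08 FPKM in laboratory mice and at 23.6, 40.9 and 24.9 FPKM in wild mice. The groups did not overlap, and Cyp7a1 rose 3.83-fold on centred log2 (difference 1.94, SE 0.30, limma adjusted p = 0.00201) and by 0.682 on zFPKM (SE 0.180, adjusted p = 0.00231). On zFPKM it lost the call without wild mouse 2 (adjusted p = 0.125), with sex as a covariate (0.298), with no trend (0.150) and with no filter (0.450). Por, the reductase that feeds electrons to cytochromes P450 and the most abundant gene of this list, was at 44.9, 39.7 and 44.0 FPKM in laboratory mice and at 116, 245 and 153 FPKM in wild mice. It rose 2.28-fold on centred log2 (difference 1.19, SE 0.29, limma adjusted p = 0.0119) and by 0.407 on zFPKM (SE 0.126, adjusted p = 0.0128). Without laboratory mouse 2, laboratory mouse 3, wild mouse 2 or wild mouse 3 the zFPKM call was lost (adjusted p = 0.0580, 0.0934, 0.303 and 0.115). With sex as a covariate (wild mouse 1 alone), the Por call was lost, with differences of 0.144 on zFPKM and 0.84 on centred log2. On zFPKM it was lost too with no trend (0.322), no filter (0.450), a floor of -5 (0.0645) and a median of 0 (0.0584). Over the alternatives the adjusted p ran from 6.66e-04 to 0.450 for Cyp7a1 and from 8.64e-04 to 0.639 for Por.

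A pair of output genes divided the wild mice otherwise than Dbp did. Elovl3, a fatty acid elongase that is higher in male than in female mouse liver, was at 52.6, 66.7 and 49.6 FPKM in laboratory mice and at 43.4, 1.15 and 0.0955 FPKM in wild mice. The low mice were the 2 females. The zFPKM difference was -1.95 (SE 0.184, limma adjusted p = 1.05e-23), in a fit that gave no weight to the gene's own spread. With the trend removed the SE was 0.626 and the limma adjusted p 0.130. With sex as a covariate (wild mouse 1 alone), the zFPKM difference was -0.514. Without wild mouse 3 the zFPKM difference was -1.24. On centred log2 the difference was -5.41 (SE 1.68, limma adjusted p = 0.0300) and passed with a mouse left out only where that was wild mouse 1. Over the alternatives the adjusted p of Elovl3 ran from 1.31e-22 to 0.459. Rgs16, a regulator of G protein signalling that responds to fasting in liver, was at 2.25, 5.76 and 10.6 FPKM in laboratory mice and at 4.04, 67.1 and 115 FPKM in wild mice. Wild mouse 1, the male, lay inside the laboratory range. The zFPKM difference of Rgs16 was 0.599 (SE 0.176, limma adjusted p = 0.00763), against -0.618 with sex as a covariate (wild mouse 1 alone). On centred log2 Rgs16 did not pass (1.85, SE 1.06, adjusted p = 0.180). The Rgs16 call on zFPKM was lost without laboratory mouse 1 (0.115), laboratory mouse 3 (0.332), wild mouse 2 (0.401) or wild mouse 3 (0.702), and its adjusted p over the alternatives ran from 3.35e-04 to 0.702.

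The other output genes that passed on centred log2 were picked out after their values were seen. Nampt, of NAD synthesis, differed by 0.86 (limma adjusted p = 0.0133), the cold-induced RNA-binding protein gene Rbm3 by 0.91 (adjusted p = 0.0226) and liver glycogen synthase Gys2 by -0.61 (adjusted p = 0.0215). None of these 3 passed on zFPKM, where the adjusted p was 0.345 for Nampt, 0.221 for Rbm3 and 0.415 for Gys2. Wee1, a kinase of the cell cycle with the lowest mean of the list, was at 0.322, 0.199 and 0.531 FPKM in laboratory mice and at 1.40, 0.781 and 1.29 FPKM in wild mice (centred log2 difference 0.77, SE 0.37, limma adjusted p = 0.118, range over the alternatives 0.0139 to 0.807). Cdkn1a, the cell cycle inhibitor p21, was listed at 2 places and not tested, and its chromosome 17 copy was at 0.0137, 0.124 and 0.269 FPKM in laboratory mice and at 0.930, 10.4 and 10.7 FPKM in wild mice.

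The tested genes whose zFPKM profile over the 6 mice lay nearest to that of Arntl, by the root mean square distance after each profile was centred on its mean, were Apoa4 (0.0559), Slc25a15 (0.0680), Sema3e (0.0689), Rnf135 (0.0736) and Tymp (0.0789). Apoa4, an apolipoprotein, was at 39.1, 46.2 and 52.2 FPKM in laboratory mice and at 272, 459 and 198 FPKM in wild mice. Sema3e was at 0 FPKM in every laboratory mouse and at most at 0.0617 FPKM in wild mice, so its profile rests on the floor of -3. On centred log2 only Tymp and Rnf135 of these genes were among the 5 nearest. No clock gene was among them, and the nearest other member was Npas2 at rank 1557 (0.217) on zFPKM and at rank 95 (0.371) on centred log2. Nearest to Dbp were 2900005J15Rik (0.152), Carmil2 (0.167), Lax1 (0.170), 1500015A07Rik (0.199) and Slc2a4rg-ps (0.210), all of which were below 5 FPKM in every mouse. The member nearest to Dbp was Per2, at rank 195 (0.391) on zFPKM and at rank 133 (1.19) on centred log2. These distances rest on 6 mice and are a description.

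Markers of other liver cells differed between the mice as well. The summed FPKM of 5 Kupffer cell markers was 34.4, 26.8 and 29.3 in laboratory mice against 11.1, 40.3 and 106 in wild mice. All 5 were highest in wild mouse 3 by FPKM and none was listed at 0. On centred log2, Clec4f was higher in laboratory mouse 1 (4.62) than in wild mouse 3 (3.83). Among the wild mice the sum followed the FPKM order of Dbp, Nr1d1, Cry2, Per1, Per2 and both copies of Per3. It followed the reverse of the order of Arntl, Npas2 and Cry1. The median FPKM of the tested genes had the same order as the sum in wild mice 1, 2 and 3 (1.56, 1.73 and 1.94). In laboratory mice the sum was highest in laboratory mouse 1, where Per1 and Per2 were lowest. The sum of 5 stellate cell markers was 27.5 to 42.5 in laboratory mice against 71.4 to 128 in wild mice, with 3 of 5 higher and 1 of 5 lower in every wild mouse and none at 0. The sum of 10 hepatocyte markers was 58957 to 75591 in laboratory mice against 45973 to 50310 in wild mice, with 5 higher and 3 lower in every wild mouse. The sums for 5 endothelial markers (16.7 to 27.1 against 15.2 to 50.7), 4 biliary markers (3.81 to 9.56 against 1.65 to 4.59), 5 lymphocyte markers (3.32 to 3.81 against 1.56 to 4.80) and 4 red cell markers (780 to 3032 against 449 to 1070) overlapped between the groups. The part of these cells in the clock gene values was not tested.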

How the data were processed

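Liver RNA of 3 laboratory and 3 wild mice was made into stranded mRNA libraries and read from 1 end for 100 bases. Alignment by the authors used kalign and a repeat-masked GRCm38.p6 genome, and they calculated the deposited FPKM with the Tuxedo pipeline, and Picard is named in the submitters' processing notes. Versions used for the RNA reads are not given in the sources used here. From log2 FPKM the authors derived a score, the deposited zFPKM, with the R package of that name, by taking off the mode and dividing by the SD fitted in each mouse. Since the files used hold FPKM and not counts, limma took the place of the study's count test, and depth, and with it any counting interval, is unknown. The authors' bounds on FPKM were used only as a measure of precision.

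Samples were grouped by origin as given in their titles. Gene names listed once in every mouse were used, less 24 with an estimate not marked as OK. A gene was tested where its zFPKM exceeded -3 in 3 or more of the 6 mice, and values under -3 were raised to it. The test was the moderated linear model of limma 3.58.1, run under R 4.3.3 with the variance trend (two-sided, Benjamini-Hochberg over 18619 genes, adjusted p under 0.05). In the fit of all mice on zFPKM, each gene was given the spread shared by genes of like level and no weight to its own. All differences are wild minus laboratory. The procedure was tested on simulated data. Python 3.11.15, numpy 2.4.6 and pandas 2.3.3 served for levels, ratios, spread, distances and motifs. Starts in the files count from 0, and 1 was added. Promoter windows came from RefSeq. Of the regulators, 1 gene enters the counts and is not reported here by name.

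The core clock genes, both lists and the tests were chosen with earlier results of these data known. The genes named were all 10 members, from the 18 regulators and the 15 output genes each gene called on zFPKM and that with the highest and the lowest mean FPKM, and the 5 genes nearest in profile to Arntl and to Dbp. Alternatives were log2(FPKM + 1), log2(FPKM + 0.1) with and without a median of 0 per mouse, zFPKM with a median of 0, quantile normalization, a floor of -5, no filter, a filter on all mice, limma without trend, sex as a covariate and each mouse left out. Entries matched by name and position, the centred log2 scale combined with sex or with a mouse left out, and the spread on zFPKM were added after seeing the data. Ratios other than that of Arntl to Dbp were not planned either. The mice are separate animals.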

Additional observations from a re-analysis of the deposited data

How the results depend on the processing

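With limma, 2690 genes were called on zFPKM, 8242 on log2(FPKM + 1), 8589 on log2(FPKM + 0.1), 8817 with its median at 0, 5270 on zFPKM with a median of 0, 7282 after quantile normalization, 23 with no filter, 795 with no trend, 1374 with sex as a covariate (249 of them higher in wild mice), 5279 with sex on centred log2, and 1420 to 2556 with a mouse left out. Of the core clock genes, 2 were called on zFPKM, 5 on log2(FPKM + 1), 5 on log2(FPKM + 0.1), 1 with a floor of -5, 0 with no filter and 0 with no trend (2 at an unadjusted p under 0.05 in each), 1 with sex and 1 with any mouse left out, and on centred log2 3 were called with all mice and 2 to 6 with a mouse left out. Of the regulators, 1 was called on zFPKM, 8, 8 and 5 on the 3 log2 scales, 3 on zFPKM with a median of 0, 3 after quantile normalization, 0 with a floor of -5, no filter, the filter on all mice, no trend or sex (1, 0, 1, 0 and 2 at an unadjusted p under 0.05), 3 with sex on centred log2, 0 or 1 with a mouse left out, and 3 to 6 so on centred log2 (0 or 1 at an unadjusted p under 0.05 where none was called). Of the output genes, 4 were called on zFPKM, 7 on each uncentred log2 scale, 2 on zFPKM with a median of 0, 2 with a floor of -5, 0 with no filter, no trend or sex (1, 2 and 2 at an unadjusted p under 0.05), 1 with sex on centred log2, 1 to 6 with a mouse left out, and 2 to 9 so on centred log2. On zFPKM, 3 rather than 5 members had a spread above the median in laboratory mice, and 6 rather than 8 in wild mice. Of 368 alternative values of 16 single genes, 258 kept direction and side of the threshold, 75 lost a call, 22 gained one and 13 turned sign. The sign turned for Per1 with sex (-0.989, and -1.66 on centred log2), and with mice left out (range -0.262 without wild mouse 3 to 0.606 without wild mouse 1, and -0.47 to 1.25 on centred log2). It turned for Nr1d1 on log2(FPKM + 1) (0.26), on log2(FPKM + 0.1) (0.27) and without wild mouse 1 (0.0486, against -0.337 without wild mouse 3). With sex it turned for Cry2 (-0.139), Bhlhe40 (-0.125) and Rgs16 (-0.618, and -0.94 on centred log2). All fits with sex set wild mouse 1 alone against the laboratory mice. The cause was not tested. No paired analysis was run, because the laboratory and wild mice are separate animals with no pairing in the design. Depth is unknown, so no detection limit is given, and of the 9 tested members Npas2 had the widest bounds on FPKM, at up to 55.1% of the value.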
